A study of Mus musculus with 16 samples.

Results

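The forkhead transcription factor genes described here are Foxp3, Foxp1, Foxp4, Foxo1, Foxo3, Foxn3, Foxj3 and Foxk1. They were taken by symbol from 2 tables of splenic CD4+ T cells, one for conventional cells and one for regulatory T cells (Treg), and make up 8 of the 47643 genes listed in each table. Each symbol matched 1 gene in both tables, and all 8 passed the filter on low values in both subsets, a mean of at least 5 normalised read counts over the 8 libraries of a subset.

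The mice were TRaGS animals, whose thyroid hormone receptor alpha can no longer bind DNA, and their wild-type littermates, called TRaWT. All 8 mice, 4 of each genotype, gave a CD25- CD4+ fraction (labelled naive and called CD4 here) and a CD25+ CD4+ fraction (called Treg), both obtained from spleen by magnetic enrichment and flow sorting. This makes 16 libraries in 4 groups of 4. No restriction of the receptor change to T cells and no drug or hormone treatment is named in the labels, and neither the age nor the strain background of the mice was found in the sources used here. CD25 is the product of Il2ra, so the level of Il2ra follows from the sort, and the CD25- gate selects on CD25 alone: no marker of naive cells is named for it.

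Forkhead factors bind DNA through a winged-helix domain. FOXP3 defines the regulatory T cell lineage: it holds genes such as Il2ra and Ctla4 active and others such as Il2 silent, and mice without it develop fatal autoimmunity. FOXP1 keeps naive T cells quiescent, FOXP1 and FOXP4 can pair with FOXP3 through a leucine zipper, and FOXO1 and FOXO3 link antigen and growth factor signalling to gene expression, since phosphorylation by AKT moves them out of the nucleus.

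Promoters of the members were read from RefSeq (build GRCm38.p6), 250 bases before to 50 bases after each transcription start, and were held for 7 of the 8 members with 10 starts in all. They are shown for Foxp3, whose level separates the subsets, and for Foxp1, whose level changed with genotype. Capitals mark 2 short motifs searched on both strands: AGGTCA (reverse complement TGACCT), the half-site bound by thyroid hormone receptors and other nuclear receptors, and TGTTTA (reverse complement TAAACA), a core of forkhead sites. The sequences run 5′ to 3′ on the strand of the gene.
Foxp3 start 1, chrX:7579426-7579725, plus strand: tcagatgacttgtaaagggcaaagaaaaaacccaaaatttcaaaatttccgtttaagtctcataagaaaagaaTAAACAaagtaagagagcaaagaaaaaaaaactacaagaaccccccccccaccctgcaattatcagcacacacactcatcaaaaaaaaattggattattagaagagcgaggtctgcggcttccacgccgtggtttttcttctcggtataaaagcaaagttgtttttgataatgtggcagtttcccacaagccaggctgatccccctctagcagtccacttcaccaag
Foxp3 start 2, chrX:7580233-7580532, plus strand: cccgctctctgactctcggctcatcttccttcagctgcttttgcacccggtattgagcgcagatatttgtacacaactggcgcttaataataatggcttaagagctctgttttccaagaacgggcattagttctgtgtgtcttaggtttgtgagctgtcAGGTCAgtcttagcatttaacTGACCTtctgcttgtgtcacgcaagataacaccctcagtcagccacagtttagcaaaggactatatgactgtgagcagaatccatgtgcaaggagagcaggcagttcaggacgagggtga
Foxp1 start 1, chr6:99520944-99521243, minus strand: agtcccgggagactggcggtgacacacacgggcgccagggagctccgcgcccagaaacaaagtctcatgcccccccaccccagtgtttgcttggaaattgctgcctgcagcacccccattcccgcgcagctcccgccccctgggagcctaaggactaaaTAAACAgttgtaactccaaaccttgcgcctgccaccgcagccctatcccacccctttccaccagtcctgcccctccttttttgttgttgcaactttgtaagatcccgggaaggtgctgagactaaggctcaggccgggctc
Foxp1 start 2, chr6:99266466-99266765, minus strand: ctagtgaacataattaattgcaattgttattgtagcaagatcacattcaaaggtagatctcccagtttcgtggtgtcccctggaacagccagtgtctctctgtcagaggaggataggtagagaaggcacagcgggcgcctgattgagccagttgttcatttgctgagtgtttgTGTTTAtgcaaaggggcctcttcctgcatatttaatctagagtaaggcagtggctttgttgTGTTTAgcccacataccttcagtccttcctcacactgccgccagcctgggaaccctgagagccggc
Foxp1 start 3, chr6:99028249-99028548, minus strand: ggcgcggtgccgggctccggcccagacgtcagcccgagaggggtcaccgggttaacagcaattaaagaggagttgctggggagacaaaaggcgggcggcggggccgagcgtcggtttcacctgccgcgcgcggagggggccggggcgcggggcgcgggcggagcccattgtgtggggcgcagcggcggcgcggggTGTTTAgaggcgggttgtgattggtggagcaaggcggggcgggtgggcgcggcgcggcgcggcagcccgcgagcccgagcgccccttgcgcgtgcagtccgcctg

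AGGTCA was found in 2 of the 10 members' starts, and 16.3% of the 32851 mouse promoters in the same table hold it. In the second Foxp3 start it occurs once on each strand, the forward match beginning 91 bases and the reverse match 70 bases before the start. The other match lay in the Foxn3 promoter, beginning at base 27 after the start. A direct repeat of AGGTCA with 4 bases between the copies, the arrangement preferred by thyroid hormone receptors, was found in 0 of the 10 starts and in 0.0152% of all promoters. TGTTTA was found in 4 starts, the first of Foxp3 and all 3 of Foxp1, against 13.4% of all promoters, while the longer TGTTTAC was found in 0, against 3.65%. These matches describe letters in the window and no binding was measured.

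Depth ran from 2679119 to 5095278 recovered reads in the CD4 libraries and from 2912038 to 4154027 in those of Treg, of which a single gene overlapping ribosomal RNA sequence, Gm42418, took 20.8% to 41.1%. Intervals and tests of the forkhead members therefore rest on counts from 27 (Foxp4 in a TRaWT CD4 library) to 3378 reads (Foxp1 in a TRaGS CD4 library). Other genes named below go lower, such as Foxd2 at 0 reads in TRaWT CD4 replicate 2 and Foxk2 at 3 reads in a TRaGS CD4 library. Others go higher, such as Ikzf2 at 7405 in a TRaGS Treg library. Markers of CD4 T cells were present in all groups, with 7 of 7 detected. Markers of B cells, 9 of 9 detected, took 0.0379% ± 0.00706 of reads in TRaWT Treg and 0.0626% ± 0.00983 in TRaGS Treg (SD, n = 4; exact permutation test, two-sided, p = 0.0286). In CD4 they took 0.0359% ± 0.00846 and 0.0303% ± 0.00704 (exact permutation p = 0.429). With 4 libraries against 4 the exact test cannot go below p = 0.0286. Libraries are bulk, so a lower level of a gene can mean fewer cells of a type or less RNA per cell, and these cannot be told apart.

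**Figure D1:**
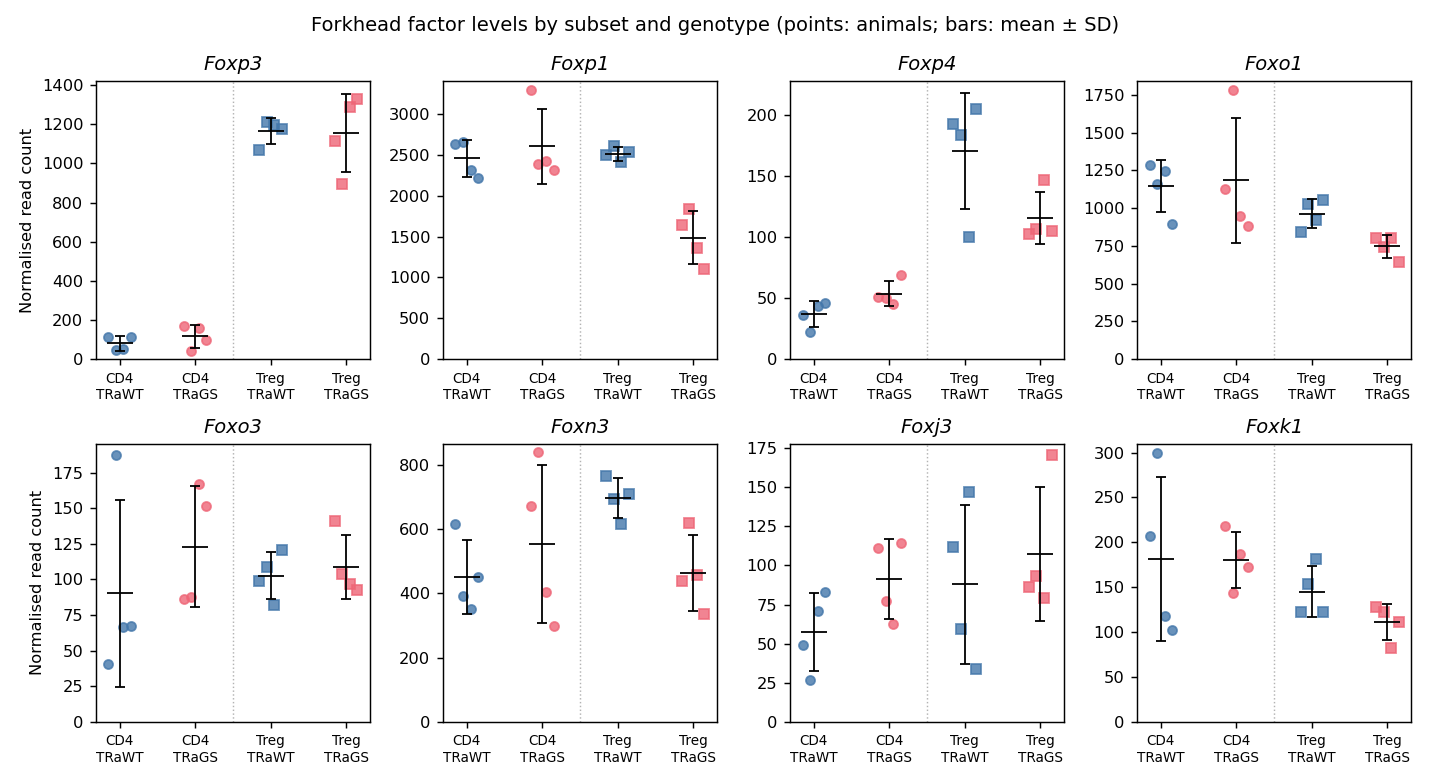
Normalised read counts of the 8 forkhead genes in each library (points), with mean ± SD as bars, for CD4 (circles) and Treg (squares) of TRaWT (blue) and TRaGS (red) mice; the y axes start at 0 and differ between genes, and the dotted line separates tables that were normalised separately. The 4 TRaGS Treg values of Foxp1 (1099 to 1839) lie below all other values of that gene, and Foxp3 is high in all 8 Treg libraries.

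Foxp3 (ENSMUSG00000039521, chromosome X, 7573644 to 7595245, plus strand, GRCm38) separated the subsets in every animal and did not differ between genotypes within either subset beyond the spread. In TRaWT the CD4 libraries held 113, 45.9, 50.1 and 115 normalised counts and the Treg libraries of the same animals, in the same order, 1069, 1214, 1198 and 1177. In TRaGS the CD4 libraries held 170.1, 43.1, 157 and 95.1 and the Treg libraries 1114, 893, 1289 and 1330. All Treg values lay far above all CD4 values, and the CD4 values of both genotypes were spread widely while the TRaWT Treg values lay close together.

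For comparisons between subsets the reads of all 16 libraries were scaled together, because the deposited tables were normalised separately. On that scale Foxp3 was 13.5-fold higher in Treg than in CD4 of TRaWT mice (log2 difference 3.76 ± 0.28 SE, limma adjusted p = 2.41e-19) and 9.67-fold higher in TRaGS mice (3.27 ± 0.28, limma adjusted p = 1.54e-16). These errors rest mostly on a variance trend across genes (prior degrees of freedom 83.0) and less on the spread between animals. Within single animals the ratio ran from 8.28 to 23.2 in TRaWT (median 14.8) and from 5.84 to 18.1 in TRaGS (median 9.61). Seen from the other side, the CD25- fraction carried 4.31% to 12.1% of the Foxp3 level of the same animal's Treg in TRaWT and 5.51% to 17.1% in TRaGS. The ranges overlapped. The genotype effect on Foxp3 in Treg minus that in CD4 was -0.49 ± 0.39 (95% interval -1.27 to 0.29, limma adjusted p = 0.865).

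Within Treg the log2 difference of Foxp3 between genotypes (TRaGS minus TRaWT) was -0.03 ± 0.14, with a 95% interval of -0.32 to 0.27 (limma adjusted p = 0.981), and it took the other sign without TRaGS replicate 2. Within CD4 it was 0.46 ± 0.61, with an interval of -0.73 to 1.66 (limma adjusted p = 0.950). The other 6 Treg markers used for the check of cell identity (Il2ra, Ctla4, Ikzf2, Tnfrsf18, Lrrc32 and Gpr83) were summed beside it. In the CD4 libraries their sum was 619.9 to 845 normalised counts in TRaWT and 906 to 1291 in TRaGS, without overlap. Their share of reads was 0.0244% and 0.0346% (exact permutation p = 0.0571) and overlapped, with TRaWT reaching 0.0281% and TRaGS starting at 0.0274%. In this CD4 sum Ikzf2 ran from 399.6 to 451 in TRaWT and from 570 to 795 in TRaGS, and Gpr83 from 28.4 to 75.6 and from 74.8 to 346. Il2ra ran from 72.7 to 133 and from 65.8 to 139. The other members are not given here for CD4. In Treg the share of the 6 markers was 0.206% and 0.255% (exact permutation p = 0.0286), beside the Foxp3 difference of -0.03. The members of this sum went different ways in Treg. Ikzf2, which made up most of it, had means of 3751 and 5466 normalised counts (TRaWT, TRaGS), Tnfrsf18 518 and 765, and Ctla4 243 and 266. Il2ra had 1499.6 and 1141, Gpr83 452 and 277, and Lrrc32 279.6 and 147, all lower in TRaGS. Their part in the Foxp3 values was not tested.

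Ccdc22, a gene on the opposite strand that covers the 3′ end of Foxp3, had mean normalised counts of 43.0 and 84.4 in CD4 (TRaWT, TRaGS) and 44.1 and 20.3 in Treg. Flicr, a non-coding RNA gene inside the Foxp3 locus, had 5.09 and 3.14 in CD4 and 41.7 and 44.8 in Treg. Whether the counting used strand is not stated, so reads of such overlapping genes are uncertain.

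Foxp1 (ENSMUSG00000030067, chromosome 6, 98925338 to 99522721, minus strand) was lower in TRaGS Treg than in TRaWT Treg, and no difference between genotypes was called in CD4. The TRaWT Treg libraries held 2494, 2612, 2412 and 2532 normalised counts, and the TRaGS Treg libraries 1642, 1839, 1356 and 1099. The groups did not overlap, the TRaWT values lay within a narrow band, and the highest TRaGS value was below the lowest TRaWT value. In CD4 the TRaWT libraries held 2636, 2662, 2313 and 2211 and the TRaGS libraries 3294, 2388, 2423 and 2314, which overlapped apart from the first TRaGS library, which was higher than all others.

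In Treg the log2 difference of Foxp1 was -0.79 ± 0.14 (95% interval -1.07 to -0.50, limma adjusted p = 0.000999, exact permutation p = 0.0286), a 1.72-fold lower level. Foxp1 was 1 of 25 genes called lower in Treg (0.226% of the 11051 tested) and the only one of the 8 forkhead genes called in either direction, against 0.959% of all genes tested. The call held in 16 of 17 alternative analyses and without any single library (log2 difference from -0.90 to -0.65). It was lost where the variance was not modelled by expression level (limma adjusted p = 0.381). B cell markers, given above, were higher in the same TRaGS Treg libraries, at summed normalised counts of 1754 to 2321 against 1007 to 1421, and their part in the result was not tested. Gm20696, which overlaps Foxp1 on the same strand, had means of 87.4 and 39.7 in TRaWT and TRaGS Treg and of 30.0 and 42.0 in CD4, and reads it may share with Foxp1 are uncertain.

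In CD4 the log2 difference of Foxp1 was 0.07 ± 0.19 (interval -0.30 to 0.45, limma adjusted p = 0.981), and its sign turned without the first TRaGS library (-0.043) and with upper-quartile scaling (-0.034). The genotype effect in Treg minus that in CD4, tested within animals, was -0.86 ± 0.19 (interval -1.25 to -0.47, limma adjusted p = 0.0181, exact permutation p = 0.0286). Of all genes tested for this difference 0.171% were called, 0.141% with a negative and 0.0303% with a positive value. This call was less stable than the one in Treg: it was lost in 10 of 19 alternatives, with adjusted p from 0.0574 to 0.832, among them the removal of TRaWT animal 2, 3 or 4 or of TRaGS animal 1 or 4.

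Foxp1 was the only one of the 8 whose difference between subsets was called as differing with genotype. In TRaWT the Treg level was 0.828 to 0.987 of the CD4 level of the same animal (log2 difference -0.16 ± 0.14, limma adjusted p = 0.655). In TRaGS it was 0.413 to 0.675 of the CD4 level, without overlap with TRaWT (-1.02 ± 0.14, limma adjusted p = 6.53e-09, lost in 2 of 18 alternatives at 0.0670 and 0.0928, those without a variance trend on mean expression). The TRaGS difference is 2.02-fold, and the interval of the TRaWT difference runs from -0.43 to 0.11. Of the 8 members Foxp1 and Foxn3 had animal differences without overlap between genotypes, and the share of all genes with such a split was not counted.

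**Figure D2:**
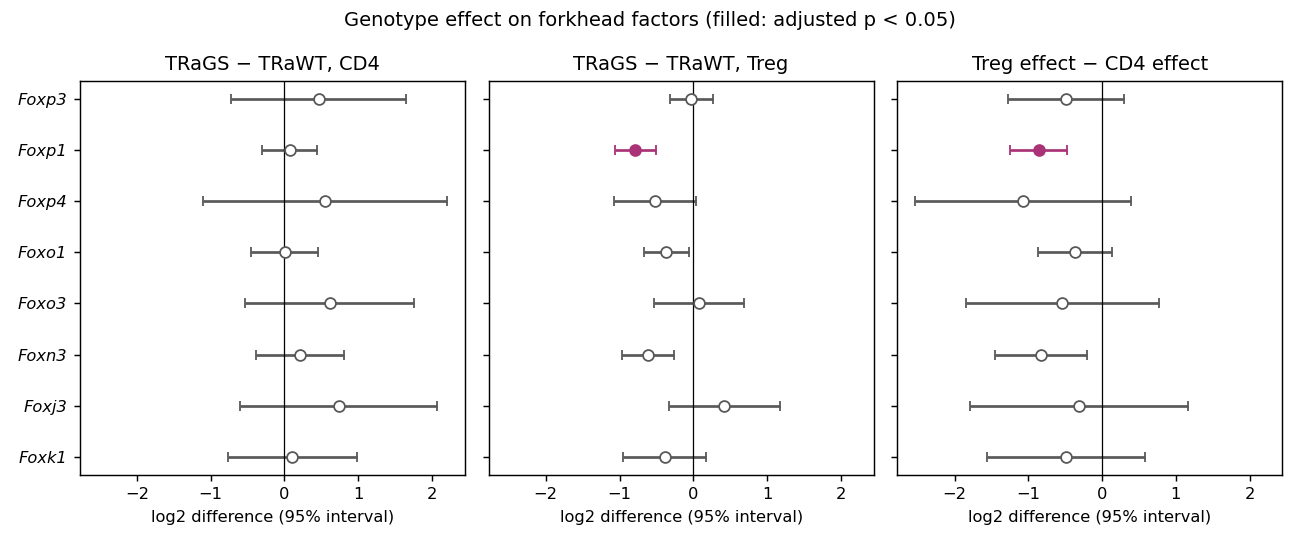
Log2 differences with 95% intervals for the 8 forkhead genes: TRaGS minus TRaWT in CD4 (left), in Treg (middle), and the Treg effect minus the CD4 effect (right). Filled purple points passed an adjusted p of 0.05, which Foxp1 did in Treg (-0.79) and for the difference between subsets (-0.86); the third panel uses the same libraries as the other panels.

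Foxp4 (ENSMUSG00000023991, chromosome 17, 47867133 to 47924645, minus strand) encodes a close relative of FOXP1 that is dispensable for T cell development in mice. In CD4 it had 36.3, 22.6, 43.6 and 46.3 normalised counts in TRaWT and 50.8, 50.2, 45.1 and 68.7 in TRaGS. In Treg it had 193, 184, 100.3 and 205 in TRaWT and 103, 107, 147 and 105 in TRaGS. Every Treg value lay above every CD4 value, and the TRaGS Treg values all lay within the TRaWT range, which the third TRaWT library widened downwards. The subset difference in TRaWT was 1.97 ± 0.52 (3.92-fold, limma adjusted p = 0.0124) and was lost in 5 of 18 alternatives, without TRaWT animal 1, 2 or 4 (limma adjusted p from 0.0861 to 0.156) and with either other variance model (0.0597 and 0.153). In TRaGS it was 0.90 ± 0.52 (limma adjusted p = 0.298), with animal ratios of 1.33 to 2.81 against 2.00 to 7.17 in TRaWT. The genotype difference did not pass in Treg (-0.52 ± 0.28, limma adjusted p = 0.595, exact permutation p = 0.143) or in CD4 (0.55 ± 0.85, limma adjusted p = 0.959, exact permutation p = 0.0571). The difference of these effects did not pass either (-1.07 ± 0.74, limma adjusted p = 0.845, exact permutation p = 0.0571). In CD4 the error came from the variance trend across genes, and the spread of Foxp4 itself did not enter it.

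Foxo1 (ENSMUSG00000044167, chromosome 3, 52268336 to 52353221, plus strand) encodes the factor that sustains Il7r and Klf2 in resting T cells. The TRaWT Treg libraries held 844, 1026, 921 and 1052 normalised counts and the TRaGS Treg libraries 802, 742, 802 and 641. The groups did not overlap, which was also so for 5.07% of all genes tested in Treg and, of the 8 members, for Foxo1 and Foxp1. The log2 difference was -0.36 ± 0.15 (interval -0.67 to -0.06), which did not pass over all genes (limma adjusted p = 0.410, exact permutation p = 0.0286), and the B cell marker values above apply here too. In CD4 the TRaWT libraries held 1284, 1157, 1244 and 896 and the TRaGS libraries 1126, 1784, 944 and 879.9, which overlapped (0.00 ± 0.23, limma adjusted p = 0.999).

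Foxo1 was lower in Treg than in CD4 of TRaGS mice, in 4 of 4 animals (-0.81 ± 0.18, 1.75-fold, limma adjusted p = 0.000998), a call that was lost without a variance trend on mean expression (0.199 and 0.153). In TRaWT it was lower in 3 of 4 animals and did not pass (-0.44 ± 0.18, limma adjusted p = 0.198). The difference between these effects was not called (-0.37 ± 0.25, limma adjusted p = 0.845), so the subset difference is not shown to depend on genotype.

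Foxo3 (ENSMUSG00000048756, chromosome 10, 42181841 to 42276755, minus strand), whose product induces pro-apoptotic and cell cycle inhibitor genes, showed no called difference. Its means were 90.2 ± 65.8 and 123 ± 42.3 normalised counts in CD4 and 102 ± 16.6 and 109 ± 22.2 in Treg (TRaWT, TRaGS; SD, n = 4). Of the TRaWT CD4 libraries 1 stood at 187 and the others at 40.4 to 67.1. The log2 difference between genotypes was 0.62 ± 0.58 in CD4 and 0.08 ± 0.30 in Treg (limma adjusted p = 0.947 and 0.971), the latter with either sign across alternatives.

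Foxn3 (ENSMUSG00000033713, chromosome 12, 99190078 to 99563582, minus strand), which encodes a transcriptional repressor linked to cell cycle checkpoints, stood on opposite sides of the CD4 level in Treg of the genotypes, in differences that were not called. The TRaWT Treg libraries held 767, 694, 617 and 710.1 normalised counts and the TRaGS Treg libraries 438, 621, 456 and 336. A single TRaGS library lay inside the TRaWT range, just above its lowest value. The log2 difference was -0.62 ± 0.17 (limma adjusted p = 0.0792, exact permutation p = 0.0571), and it passed only without that library, TRaGS replicate 2 (-0.77, limma adjusted p = 0.0140). In CD4 the values were 615, 392, 351 and 450.0 in TRaWT and 674, 839.9, 404 and 299 in TRaGS, which overlapped (0.21 ± 0.30, limma adjusted p = 0.957).

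Relative to the CD4 library of the same animal, Foxn3 in Treg stood at 1.09 to 1.56 in the 4 TRaWT animals and at 0.580 to 0.976 in the 4 TRaGS animals. All TRaWT animals were thus above 1 and all TRaGS animals below it, but TRaGS replicates 3 and 4 only slightly (0.972 and 0.976). The side of 1 rests on the joint scaling. How many of all genes split in this way was not counted, so the split describes Foxn3 only. Neither subset comparison passed (0.45 ± 0.22 and -0.37 ± 0.22, limma adjusted p = 0.332 and 0.324), and the difference between them, -0.83 ± 0.31, was not called over all genes (limma adjusted p = 0.529, exact permutation p = 0.0286).

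Foxj3 (ENSMUSG00000032998, chromosome 4, 119537004 to 119629119, plus strand), a forkhead factor known in muscle as an activator of Mef2c, had 57.4 ± 24.8 and 91.4 ± 25.7 normalised counts in CD4 and 88.0 ± 50.9 and 107 ± 42.6 in Treg. Its Treg values ran from 34.0 to 147 in TRaWT and from 79.2 to 171 in TRaGS, so that the groups overlapped. No comparison passed (limma adjusted p from 0.823 to 0.994). Frg2f1, which overlaps it on the other strand, had means of 6.12 to 34.2.

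Foxk1 (ENSMUSG00000056493, chromosome 5, 142401497 to 142462011, plus strand), a regulator of glycolysis and autophagy genes with SIN3A as a partner, had 181 ± 90.9 and 180.3 ± 30.9 normalised counts in CD4 and 145 ± 28.7 and 111 ± 20.2 in Treg. In TRaGS it was lower in Treg than in CD4 in 4 of 4 animals, at 0.381 to 0.746 of the CD4 level, without overlap between the subsets, but did not pass (-0.89 ± 0.38, limma adjusted p = 0.140). In TRaWT the ratio ran from 0.452 to 1.34 and fell on both sides of 1. Genotype differences were 0.11 ± 0.45 in CD4 and -0.38 ± 0.28 in Treg (limma adjusted p = 0.987 and 0.757).

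**Figure D3:**
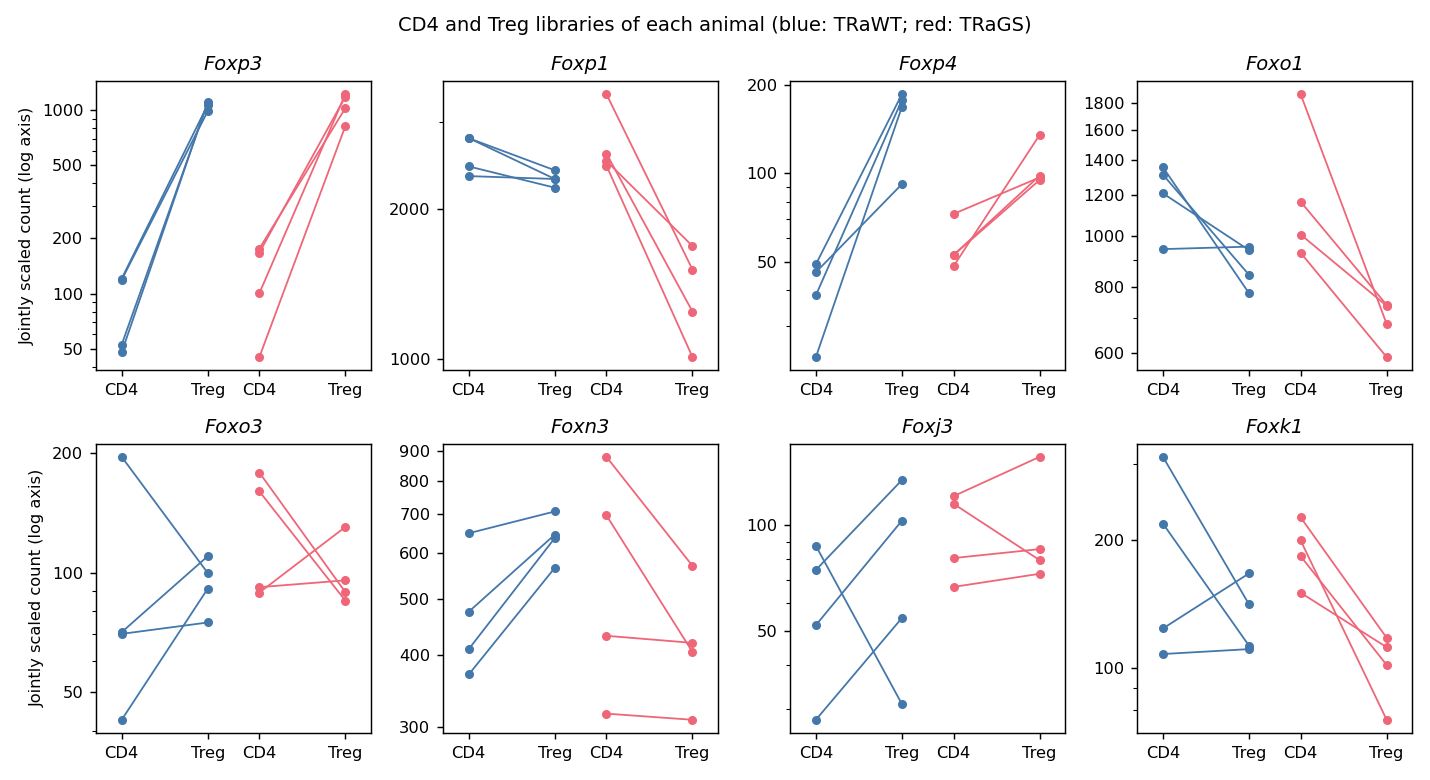
Jointly scaled counts (log axis, ranges differ between genes) of the 8 forkhead genes in the CD4 and Treg libraries of each animal, joined by a line, in TRaWT (blue) and TRaGS (red). Foxp3 rises from CD4 to Treg in 8 of 8 animals, and Foxp1 lies 0.413 to 0.675 times as high in Treg in the TRaGS animals. The lines of Foxn3 slope upwards in TRaWT and downwards in TRaGS, where those of replicates 3 and 4 are nearly flat (0.972 and 0.976).

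Across the 8 genes none was called between TRaGS and TRaWT CD4 (limma adjusted p from 0.947 to 0.999; edgeR and DESeq2 also called 0). Of all 10426 genes 0.0575% were called there, all of them higher in TRaGS (0.0575% higher, 0.00% lower). At an unadjusted p under 0.05 the count was 539 of all genes (5.17%) and 0 of the members. All 8 log2 differences in CD4 were above 0 (median 0.34, all genes -0.01), but with upper-quartile scaling, which lowered the median of all genes by 0.10, those of Foxp1 and Foxo1 were below 0, as was that of Foxk1 with edgeR and DESeq2. In Treg 6 of 8 were below 0 (median -0.37, all genes 0.01), and 3 members had an unadjusted p under 0.05, as had 9.12% of all genes. The difference between subsets, which is built from the same libraries, was below 0 for all 8 (median -0.52, all genes 0.01). Between subsets 2 of the 8 were called in TRaWT, both higher in Treg (Foxp3 and Foxp4; 3.24% of all genes were called, 1.80% higher). In TRaGS 1 was called higher (Foxp3) and 2 lower (Foxp1 and Foxo1), where 8.17% of all genes were called, 4.46% higher and 3.72% lower. In TRaGS 5 of 8 members had no overlap between subsets, against 13.2% of all genes, and in TRaWT 2 of 8 against 10.1%. The members were chosen as T cell forkhead factors, so these shares describe them only.

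Of 36 other forkhead genes looked for, 5 passed the filter in at least 1 subset: Foxj2, Foxk2, Foxn2, Foxo4 and Foxd2. None was called in any comparison by limma, edgeR or DESeq2. At an unadjusted p under 0.05 the counts were 2 of 5 in CD4 and 0 in Treg, against 5.17% and 9.12% of all genes. They were 0 between subsets in either genotype and 1 for the difference of effects, where the share of all genes was not counted. Foxo4, another FOXO factor of T cells, had 75.3 ± 43.0 and 78.3 ± 67.4 normalised counts in CD4 and 111 ± 8.92 and 121 ± 45.5 in Treg (TRaWT, TRaGS). Foxj2 had 113 ± 18.3 and 154 ± 47.7 in CD4 and 129.5 ± 26.6 and 118 ± 16.1 in Treg. Foxk2, the paralogue of Foxk1, had 68.7 ± 17.5 and 32.2 ± 34.2 in CD4 and 36.6 ± 13.0 and 29.5 ± 10.8 in Treg. Foxd2 lay near the floor: in CD4 it had 0.807, 0, 0 and 0 in TRaWT and 43.0, 0.707, 8.20 and 4.58 in TRaGS. In Treg it had 0, 0, 32.7 and 17.6 in TRaWT and 0.830, 3.61, 0 and 1.09 in TRaGS.

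Genes linked to FOXP3 were followed through fixed lists, with the same fits over all genes. Of 16 tested genes that FOXP3 is known to induce, 13 were higher in Treg than in CD4 of TRaWT mice and 11 in TRaGS mice, with none lower (median log2 difference 2.64 and 2.42, all genes 0.09 and 0.19), where 1.80% and 4.46% of all genes were called higher. Beside Il2ra, which the sort fixed, they included Ikzf2, encoding Helios (2.94 ± 0.15 in TRaWT and 2.87 ± 0.15 in TRaGS), and Nrp1, encoding a semaphorin receptor of thymus-derived Treg (2.29 ± 0.23 and 2.36 ± 0.23). Of 6 tested genes that FOXP3 is known to repress, 3 were lower in Treg of both genotypes, with none higher, where 1.44% and 3.72% of all genes were called lower. These were Satb1, a chromatin organiser (-1.17 ± 0.14 and -1.89 ± 0.14), Tcf7, encoding TCF-1 (-1.44 ± 0.17 and -2.11 ± 0.17), and Pde3b, a phosphodiesterase gene (-2.49 ± 0.33 and -2.70 ± 0.33; all limma adjusted p at or under 1.70e-08). The subset differences of Satb1 and Tcf7 were not called as differing between genotypes (-0.72 ± 0.20, limma adjusted p = 0.145, and -0.68 ± 0.25, exact permutation p = 0.0857).

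While Foxp3 itself did not pass between genotypes, some of these genes did in Treg. Of 17 tested induced genes 4 were higher in TRaGS Treg and none lower, where 0.733% of all genes were called higher: Nrp1 (0.81 ± 0.14), Icos, a costimulatory receptor gene (0.84 ± 0.16), Ikzf2 (0.54 ± 0.12) and Itgae, encoding the integrin CD103 (1.38 ± 0.33), with limma adjusted p from 0.000999 to 0.0194. Of the 17, 9 had values above 0 and 8 below it (median 0.06, all genes 0.01). Il2ra, at 1499.6 ± 151 and 1141 ± 165 normalised counts, had -0.40 ± 0.14 (limma adjusted p = 0.271). Of the 6 repressed genes Satb1 was lower in TRaGS Treg (1692 ± 232 to 1125 ± 181, -0.59 ± 0.14, limma adjusted p = 0.0231). Of 17 alternatives Nrp1 and Icos lost their call in 1 each, Ikzf2 in 6, and Itgae and Satb1 in 7 each. The B cell markers, at 0.0379% of reads in TRaWT and 0.0626% in TRaGS, were higher in the same TRaGS Treg libraries, and their part in these differences was not tested. In CD4 no gene of either list was called by limma, edgeR or DESeq2. There 3 of 16 induced genes and 1 of 6 repressed genes had an unadjusted p under 0.05, as had 5.17% of all genes.

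Gpr83, an orphan receptor gene that FOXP3 induces, differed in its genotype effect between subsets (-2.37 ± 0.51, limma adjusted p = 0.00829, lost in 5 of 19 alternatives). In CD4 it had 35.5, 28.4, 63.2 and 75.6 normalised counts in TRaWT and 158, 346, 74.8 and 98.5 in TRaGS. In Treg it had 392, 441, 496 and 480.1 in TRaWT and 326, 401, 232 and 150.1 in TRaGS. In each subset the ranges overlapped by a single library of each genotype, with TRaGS on the high side in CD4 and on the low side in Treg.

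Among 17 regulators of the Foxp3 locus, Rel, encoding the NF-kappaB subunit that opens the locus during Treg development, was higher in Treg of both genotypes (1.33 ± 0.27 and 1.61 ± 0.27, limma adjusted p = 0.000378 and 3.07e-06). In TRaGS Ets1 (-0.54 ± 0.12) and Tet3 (-0.68 ± 0.21) were lower in Treg, calls that were lost in 2 and 9 of 18 alternatives, for Tet3 without any 1 of the TRaGS animals. Ets1 had 2360 to 2643 normalised counts in TRaWT CD4 and 3143 to 3607 in TRaGS CD4. In Treg Ets1 had 2276 to 2668 in TRaWT and 2293 to 3157 in TRaGS, so its TRaGS Treg level was not below that of TRaWT Treg. Between subsets 1 of the 17 was called in TRaWT and 3 in TRaGS, where 3.24% and 8.17% of all genes were called. Of 10 tested protein partners of FOXP3, 4 were higher in Treg of both genotypes, where 1.80% and 4.46% of all genes were called higher, namely Ikzf4, encoding Eos (3.01 ± 0.30 and 2.50 ± 0.30), Gata3 (0.96 ± 0.21 and 1.43 ± 0.21), Hdac7 (0.56 ± 0.17 and 0.55 ± 0.17) and Hif1a (0.86 ± 0.26 and 1.27 ± 0.26). Of 18 alternatives Hdac7 lost its call in 9 in TRaWT and 7 in TRaGS, and Hif1a in 10 and 2. In TRaWT both were lost without any 1 of the TRaWT animals. In TRaGS Hdac7 was lost without animal 1, 2 or 3, and edgeR called 3 of the 10 partners in TRaWT. Gata3, a factor of type 2 helper cells, was also higher in TRaGS than in TRaWT Treg, at 1418 ± 228 against 891 ± 146 normalised counts (0.67 ± 0.15, limma adjusted p = 0.0115, lost in 4 of 17 alternatives), in the libraries with the higher B cell markers, whose part was not tested. No locus regulator was called between genotypes in either subset by limma, edgeR or DESeq2. Their counts at an unadjusted p under 0.05 were 2 of 16 in CD4 and 1 of 17 in Treg, against 5.17% and 9.12% of all genes.

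Of 18 targets known for FOXO factors, 6 were lower in Treg than in CD4 of TRaWT mice and 7 in TRaGS mice, with none higher (median -0.29 and -0.67), where 1.44% and 3.72% of all genes were called lower. The FOXO1-dependent homing genes were among them: Ccr7, a lymph node homing receptor, had -1.46 ± 0.22 in TRaWT and -2.20 ± 0.22 in TRaGS, and Klf2, the regulator of T cell exit from tissue, -0.74 ± 0.16 and -1.53 ± 0.16. None of the 18 was called between genotypes by limma, edgeR or DESeq2, neither in CD4, where 15 had values above 0 (median 0.33), nor in Treg, where 12 had values below 0 (median -0.13). At an unadjusted p under 0.05 the counts were 6 of 18 in CD4 and 4 of 18 in Treg, against 5.17% and 9.12% of all genes. Klf2 had 1281, 1779, 1192 and 1619.6 normalised counts in TRaWT CD4 and 2102, 3255, 1562 and 1441 in TRaGS CD4, and 808, 1038, 1121 and 1046 in TRaWT Treg and 960, 988, 674 and 591 in TRaGS Treg. The genotypes overlapped in both subsets, and the difference between subsets was not called (-0.80 ± 0.23, limma adjusted p = 0.243, exact permutation p = 0.0286).

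Upstream of FOXO, 23 genes of the PI3K, AKT, 14-3-3 and acetylation machinery were tested. In TRaWT Sgk1, encoding a kinase that phosphorylates FOXO factors, was lower in Treg (189 ± 36.3 in CD4 and 39.1 ± 13.1 in Treg, -2.49 ± 0.53, limma adjusted p = 0.00105), as was Stk4, encoding the kinase MST1 (-0.47 ± 0.14). The Stk4 call was lost in 8 of 18 alternatives, among them the removal of any 1 TRaWT animal. In TRaGS Pik3cd, the catalytic PI3K subunit of lymphocytes (-1.43 ± 0.18), and Stk4 (-0.68 ± 0.14) were among the genes lower in Treg. Between subsets 2 of the 23 were called in TRaWT and 3 in TRaGS, where 3.24% and 8.17% of all genes were called. Pik3cd also differed in its genotype effect between subsets (-1.02 ± 0.25, limma adjusted p = 0.0448), a call lost in 11 of 19 alternatives. None of the 23 was called between genotypes within a subset by limma, edgeR or DESeq2. Of them 4 in CD4 and 2 in Treg had an unadjusted p under 0.05, as had 5.17% and 9.12% of all genes.

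Of 11 genes of the NuRD and CtBP corepressor complexes, which FOXP1 and FOXP4 recruit, none was called in TRaWT or between genotypes by limma, edgeR or DESeq2. Between genotypes 0 in CD4 and 1 in Treg had an unadjusted p under 0.05, as had 5.17% and 9.12% of all genes. Between subsets in TRaWT 1 had it, where the share of all genes was not counted. In TRaGS Chd4 was higher (0.48 ± 0.13) and Rbbp4 lower (-0.78 ± 0.23) in Treg. Each of these 2 calls was lost in 6 of 18 alternatives, among them the removal of TRaGS animal 1 or 2. Of all genes 8.17% were called in that comparison. Of 12 tested partners of FOXK factors and FOXN3, Asxl1 was higher in Treg of TRaWT (1.08 ± 0.28) and Asxl2 in Treg of TRaGS (0.90 ± 0.22). None was called between genotypes by any of the 3 tools. There 1 in CD4 and 0 in Treg had an unadjusted p under 0.05, as had 5.17% and 9.12% of all genes. In each genotype 1 of the 12 was called between subsets, where 3.24% (TRaWT) and 8.17% (TRaGS) of all genes were called. The Asxl1 call was lost in 5 of 18 alternatives, among them the removal of TRaWT animal 1, 2 or 4, and the Asxl2 call in 3. Both encode subunits of the BAP1 deubiquitinase complex.

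The lists share genes, so some calls are counted in several of them. Ikzf4 is in both the induced genes and the protein partners of FOXP3, and Tcf7 in both the FOXP3 repressed genes and the FOXO targets. Rictor is in both the FOXO targets and the genes upstream of FOXO. The list of quiescence factors holds Foxp1 and Foxo1 themselves. It also holds Satb1 and Tcf7 of the FOXP3 repressed genes, Klf2, Il7r and Tcf7 of the FOXO targets and Ets1 and Runx1 of the locus regulators. Of its 18 genes 5 were lower in Treg than in CD4 of TRaWT mice and 12 in TRaGS mice, with none higher (median -0.32 and -0.78), where 1.44% and 3.72% of all genes were called lower. With upper-quartile scaling, which raised the median of all genes in the TRaGS comparison by 0.13, the split of all called genes there went from 483 higher and 403 lower to 580 higher and 297 lower. Lef1, encoding a partner of beta-catenin, had -1.17 ± 0.16 and -1.70 ± 0.16. Between genotypes Foxp1 and Satb1 were lower in TRaGS Treg, where 0.226% of all genes were called lower and edgeR called 1 of the list. Of the 18 values there 14 were below 0 (median -0.30, all genes 0.01). In CD4 Klf3, a Krüppel-like repressor, was higher in TRaGS (0.87 ± 0.18, limma adjusted p = 0.00702). Its values were 1913, 2055, 2340.1 and 2407 in TRaWT and 3485, 3475, 4406 and 4589.7 in TRaGS, without overlap, which was so for 3.16% of all genes. The call was lost in 7 of 17 alternatives. Of all genes 0.0575% were called in CD4, and edgeR called 0 of the list there. Klf3 and Foxp1 were the genes of the list whose genotype effect differed between subsets, where 0.171% of all genes were called. Klf3 had -1.01 ± 0.18 (limma adjusted p = 0.000452). An unadjusted p under 0.05 was seen for 5 of 18 in CD4 and 8 of 18 in Treg, against 5.17% and 9.12% of all genes. For the difference it was seen for 7 of 18, where the share of all genes was not counted.

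**Figure D4:**
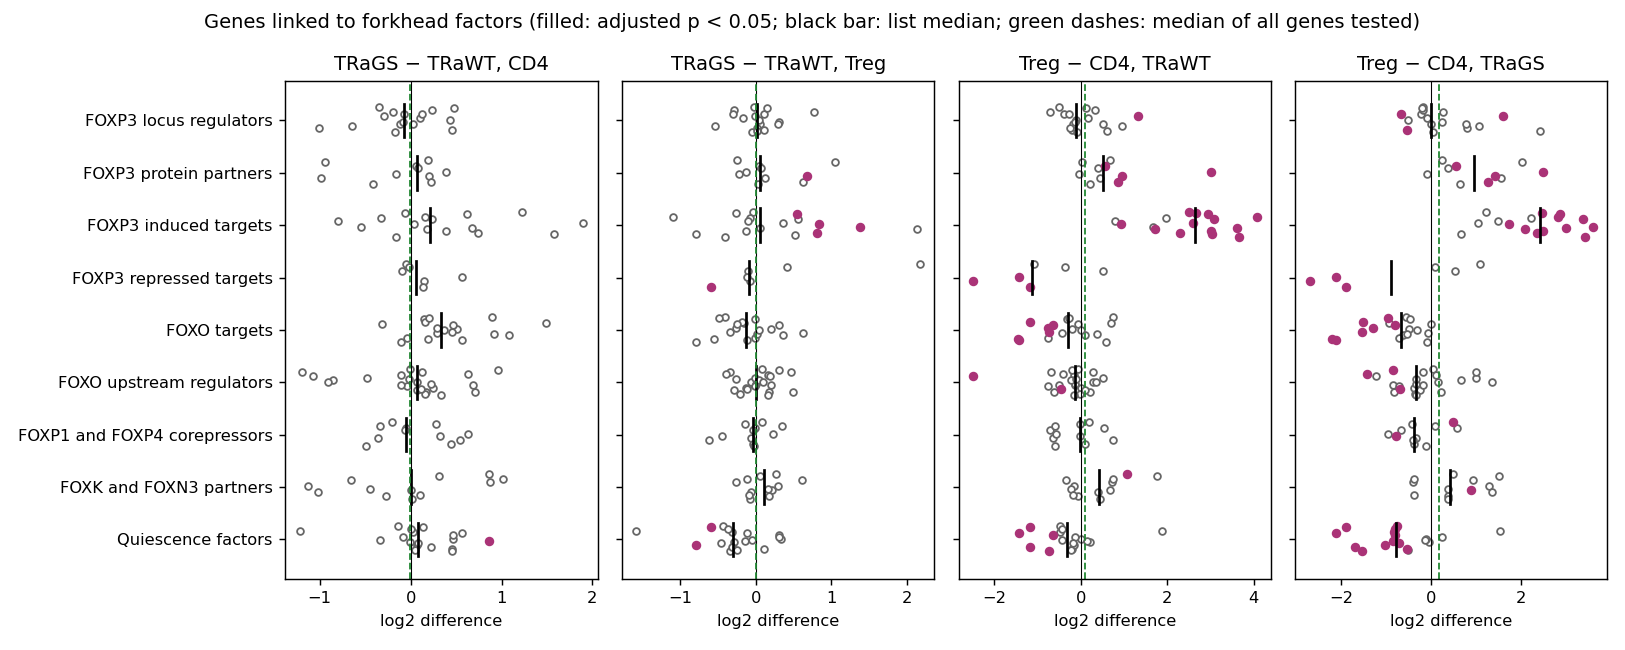
Log2 differences of the genes in 9 lists linked to forkhead factors, for TRaGS minus TRaWT in CD4 and in Treg and for Treg minus CD4 in TRaWT and in TRaGS; points are genes (filled purple where the adjusted p is under 0.05), black bars the median of a list and green dashes the median of all genes tested. FOXP3 induced targets have medians of 2.64 and 2.42 between subsets and 0.06 between genotypes in Treg, and the quiescence factors have 12 of 18 genes lower in TRaGS Treg than in TRaGS CD4.

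The genes whose pattern over the 16 jointly scaled libraries lay nearest to Foxp3 among 3885 genes with a mean of at least 100 were Il2ra, Tnfrsf4, encoding the costimulator OX40, and Ikzf2. Their root mean square log2 differences from Foxp3, after centring each gene, were 0.49, 0.51 and 0.64. Among those nearest to Foxp1 were Prkd2, encoding a protein kinase D, and Rpl32, a ribosomal protein gene, at 0.19 and 0.25. Prkd2 had 335, 381, 319.6 and 452 normalised counts in TRaWT Treg and 299, 285, 186 and 178 in TRaGS Treg, without overlap, as had 5.07% of all genes there. It was not called over all genes (-0.67 ± 0.21, limma adjusted p = 0.158). Because Prkd2 was picked for its likeness to Foxp1 in these same libraries, a split like that of Foxp1 follows in part from the choice.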

How the data were processed

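The submitters used a QuantSeq kit that primes at the 3′ end and sequences in the forward direction, per the labels' protocols, and their processing notes name the build GRCm38. Neither aligner nor counter nor any strand setting was given in the sources used here. For each subset the authors deposited a separate table of normalised counts, here a signal unit, since reads had been divided by 1 factor per library. All values were whole multiples of 1 step per library within a tolerance of 0.001 (100% of values), which gave the reads back. Applied to them, edgeR's count test gave 3 called genes for CD4 and 90 for Treg. Symbols came from the reference gene table (47224 identifiers matched), coordinates and overlaps from a GENCODE annotation of that build, and promoters from RefSeq.

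Genotypes were compared within a table with limma 3.58.1 (R 4.3.3) on log2(value + 1), with a variance trend, a mean of at least 5 and Benjamini-Hochberg adjustment over all genes at 0.05. In CD4 the prior degrees of freedom were infinite, so a gene's own spread did not enter its error. The exact permutation test is therefore given beside key values. For Treg this prior was 36.8, for the subset comparisons 83.0 and for the difference of genotype effects 106. Errors in these last fits therefore rest mostly on the variance trend across genes and less on the spread between animals. Subsets were compared on recovered reads scaled together (median of ratios), through each animal's Treg minus CD4 difference; the animal number in the sample titles ties these libraries. The genotype effect's difference between subsets used the deposited values in the same way. In these difference fits the variance trend was set on mean expression, since the mean of a difference is no level of expression. A trend on the mean difference was added as an alternative after seeing the data. It called 10 and 138 genes between subsets (TRaWT, TRaGS) and 0 for the difference, against 351, 886 and 17. Checks on simulated libraries held no animal effect and do not decide between these trends.

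Same-numbered libraries of the genotypes share a number only. No replicate pair agreed within sampling noise, so each library counts as 1 sample. Alternatives were pseudocounts of 0.5 and 5, no filter or a minimum mean of 20, upper-quartile scaling, edgeR 4.0.16, DESeq2 1.42.0, no variance trend, blocks and leaving out libraries. The rule named all 8 members, other forkhead genes past the filter, per list and comparison up to 4 called genes or 2 with the smallest p, and the 3 genes most like Foxp3 and Foxp1; the text gives a part of these, and some genes are not reported here. Members and lists were chosen with earlier results of these data known. Genes sharing 3′ sequence with near-identical copies are uncertain, and levels are not compared between genes. Figures were drawn with matplotlib 3.10.9.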

Additional observations from a re-analysis of the deposited data

Results flagged for a closer look

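In 3 of the 32 groups of 4 libraries examined for the 8 forkhead genes, 1 library lay far from the others by Dixon's test; chance alone marks about 1 in 20 such groups. Foxp1 in TRaGS CD4 replicate 1 stood at 3294 normalised counts, with the other libraries at 2314 to 2423. Foxp4 in TRaGS Treg replicate 3 stood at 147, with the others at 103 to 107. Foxj3 in TRaGS Treg replicate 4 stood at 171, with the others at 79.2 to 93.3.

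Of the 17 genes called among all 9914 tested, 4 belong to the genes followed here. For these the genotype effect differed between Treg and CD4 in limma's test of that difference within animals, given as the log2 effect in Treg minus that in CD4. It was -0.86 for Foxp1 (adjusted p = 0.0181), -1.01 for Klf3 (adjusted p = 0.000452), -2.37 for Gpr83 (adjusted p = 0.00829) and -1.02 for Pik3cd (adjusted p = 0.0448). Klf3 was called between genotypes in CD4 and Foxp1 in Treg, while Gpr83 and Pik3cd were called in neither subset singly.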

How the results depend on the processing

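Over 712 comparisons of a member's value with an alternative, 673 kept direction and side of the threshold, 18 turned in sign, 20 lost a call and 1 gained one. The calls rest on the variance model: without a variance trend the genes called were 0 in CD4 (6 in the analysis reported), 0 in Treg (106), 75 and 253 between subsets in TRaWT and TRaGS (351 and 886) and 0 for the difference between subsets (17), with 0, 1, 1 and 0 members called in the latter 4 comparisons, Foxp1 at -0.79 in Treg (adjusted p = 0.381) and at -0.86 for the difference (0.832). With the trend on the mean difference, chosen after seeing the data, 10, 138 and 0 genes and 1, 1 and 0 members were called between subsets and for the difference (Foxp1 -0.86, adjusted p = 0.788), and Foxp3 kept its calls at 0.0449 and 0.0358. With no filter 1, 62, 140, 385 and 1 genes were called in the 5 comparisons. DESeq2 called 10 in CD4, 672 and 1463 between subsets and 41 for the difference, and edgeR 3 in CD4. The difference for Foxp1 was not called without a filter (-0.86, adjusted p = 0.658, 0 members) or with upper-quartile scaling (-0.75, adjusted p = 0.109, 0 members). That scaling lowered the median of all genes in CD4 by 0.10 and raised it by 0.13 between subsets in TRaGS and by 0.11 for the difference, where the higher and lower calls went from 3 and 14 to 4 and 9 (21 and 20 with DESeq2). The causes were not tested.

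Same-numbered libraries of the genotypes did not deviate together (correlations -0.021 to 0.0456). With the replicate number as a replicate block 4 genes were called in CD4 and 112 in Treg, Foxp1 keeping its call in Treg at -0.79. Treating libraries of an animal as independent (no replicate block) left 3 genes and 0 members for the difference, with Foxp1 at -0.86 (adjusted p = 0.298).

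Leaving out single libraries or animals gave 3 to 9 genes in CD4, 56 to 108 in Treg, 180 to 593 and 534 to 877 between subsets and 12 to 31 for the difference; members called were 1 to 2 in Treg, 1 to 2 and 3 between subsets and 0 to 1 for the difference, with Foxp1 at -0.90 to -0.65 in Treg and -1.01 to -0.78 for the difference. Counts of genes moved by over 1.5 times without TRaWT replicate 2, 3 or 4 in CD4 (3 each), without TRaGS replicate 3 or 4 in Treg (56 and 61), between subsets without any TRaWT animal (180 to 228) or TRaGS animal 2 (593) in TRaWT and without TRaGS animal 1 or 2 (534 and 588) in TRaGS, and for the difference without TRaGS animal 4 (31).

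Sign turns were in differences that were not called. By setting they were, in CD4, Foxp1 (-0.034) and Foxo1 (-0.11) with upper-quartile scaling and Foxk1 with edgeR (-0.020) and DESeq2 (-0.014), and, between subsets in TRaGS, Foxj3 with edgeR (-0.019). Without single libraries the values in CD4 ran from -0.043 to 0.13 for Foxp1, from -0.21 to 0.13 for Foxo1, from -0.027 to 0.47 for Foxn3 and from -0.12 to 0.39 for Foxk1, and in Treg from -0.099 to 0.093 for Foxp3 and from -0.053 to 0.16 for Foxo3. Without single animals they ran between subsets from -0.084 to 0.60 for Foxo3 in TRaWT and from -0.12 to 0.18 for Foxj3 in TRaGS. Members with few reads, such as Foxp4 and Foxj3, have wide intervals. In CD4 these widths come from the variance trend across genes, and a gene's own spread does not enter them.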
